A study of Mus musculus with 6 samples.

Results

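The 9 genes of plasminogen activation, coagulation control and the serpin family were measured in 2 fractions of cells sorted from mouse pancreatic tumours. They were taken by symbol from a list and are Plat, Plau, Plaur, Serpine2, Serpinf1, Serping1, Serpinb2, F3 and Thbd. All 9 were found among the 49671 genes of each count table, and all 9 passed the filter on low counts that left 15608 genes for testing. RNA was sequenced in 6 libraries, 3 of a GFP and 3 of a Tomato fraction. Every host mouse carried the alleles Rosa-mTmG and Fabp4-Cre in the C57BL/6J background. The mouse pancreatic cancer line FC1199 was placed in the pancreas at 8 weeks of age, no treatment was given, and tumours were taken 4 weeks later, at 12 weeks of age. Cells with Podoplanin on their surface were sorted by reporter colour. Per the labels, GFP cells are cancer-associated fibroblasts (CAFs) descended from pancreatic stellate cells and Tomato cells are CAFs of other origin. The reporter turns from Tomato to GFP wherever the Fabp4 promoter has driven Cre, and that promoter is also known to be active in fat cells and in endothelium. The labels do not say whether each library came from its own animal, so p-values measure the spread between these libraries, which may be technical.

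Plasminogen is a blood protein that 2 activators cut into plasmin, a protease that dissolves fibrin and degrades matrix. Serpins are a family of proteins of which most trap and inactivate serine proteases, and some have lost that activity. Tissue factor starts coagulation, and thrombomodulin turns thrombin from a clotting enzyme into an activator of the anticoagulant protein C. Fibroblasts and other stromal cells are known sources of the activators, of their receptor and of several serpins.

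RefSeq promoter sequence was at hand for 5 of the 9 genes, and 4 are shown because they belong to the 2 genes with the same order of libraries (Serpinb2 and Plaur), to a gene with the same motif and another pattern (F3) and to a gene that rose in GFP (Serpine2). Each line gives the 250 bases before the RefSeq start, 5′ to 3′ on the gene's strand, in build GRCm38.p6. Capitals mark matches, on either strand, to the AP-1-like motif TGANTCA, the TATA box TATAAA or the GC box GGGCGG.
Serpinb2, chr1:107511173-107511422, plus strand: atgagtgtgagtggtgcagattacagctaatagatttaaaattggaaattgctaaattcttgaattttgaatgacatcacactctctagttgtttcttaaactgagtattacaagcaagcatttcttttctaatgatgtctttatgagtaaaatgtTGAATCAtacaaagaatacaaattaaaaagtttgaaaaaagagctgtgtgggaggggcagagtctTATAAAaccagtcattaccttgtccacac
Plaur, chr7:24462233-24462482, plus strand: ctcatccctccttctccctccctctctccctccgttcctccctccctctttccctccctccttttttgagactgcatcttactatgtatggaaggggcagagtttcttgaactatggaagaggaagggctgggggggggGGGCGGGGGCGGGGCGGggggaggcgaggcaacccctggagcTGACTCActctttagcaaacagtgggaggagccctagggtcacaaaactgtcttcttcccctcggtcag
F3, chr3:121723287-121723536, plus strand: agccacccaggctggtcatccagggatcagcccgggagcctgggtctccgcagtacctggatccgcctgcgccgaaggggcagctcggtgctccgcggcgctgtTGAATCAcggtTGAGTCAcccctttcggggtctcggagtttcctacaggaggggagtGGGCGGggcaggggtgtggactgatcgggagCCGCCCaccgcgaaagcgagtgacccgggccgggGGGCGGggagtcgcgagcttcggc
Serpine2, chr1:79858666-79858915, minus strand: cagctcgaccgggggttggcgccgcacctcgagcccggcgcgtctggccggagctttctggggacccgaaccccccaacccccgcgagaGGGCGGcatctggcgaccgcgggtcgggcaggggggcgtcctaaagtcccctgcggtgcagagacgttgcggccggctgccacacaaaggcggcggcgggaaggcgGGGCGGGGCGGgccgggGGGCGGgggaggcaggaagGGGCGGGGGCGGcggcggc
The AP-1-like motif, the letters bound by Fos and Jun proteins, was found at 1 place in Serpinb2, 1 in Plaur and 2 in F3, and nowhere in these windows of Serpine2 and Serpinf1. It was held by 6.75% of 32851 promoter windows of the same length. The TATA box was found in Serpinb2, 29 to 24 bases before the start, and such a box was held by 12.4% of the windows. GC boxes, held by 32.7% of the windows, numbered 6 in Serpine2, 3 in F3 and 3 in Plaur, some of which overlap by 1 base. Serpinf1 held none of the 3 motifs. The RefSeq starts of Serpine2 and of Serpinf1 lie inside their GENCODE genes, so their windows are not those of the outermost starts. Serpinb2 has a further, overlapping entry with a start downstream. A match is a description of the letters and does not show that a factor binds.

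The 6 libraries held 33378377 to 42154933 counts each. Pdpn, the gene of the sorting marker, stood at 404 ± 35.5 CPM (counts scaled to a common library size by TMM) in GFP and 433 ± 19.6 in Tomato (mean ± SD, n = 3; edgeR adjusted p = 0.481), and Fabp4, whose promoter drove Cre, at 17.1 ± 1.56 and 18.2 ± 0.907 CPM (adjusted p = 0.551). Fibroblast markers were abundant in both fractions, with a summed level over 8 genes of 63641 to 71905 CPM in GFP and 29615 to 43774 in Tomato, and 5 of the 8 were higher in GFP. Col1a1 (means of 33972 CPM in GFP and 13788 in Tomato) and Col1a2 (20533 and 10689) made up most of these sums. Dcn (7750 and 8306 CPM), Lum and Fap did not pass. Markers of other cells moved with the fractions. All 11 macrophage and monocyte genes were lower in GFP, with sums of 129 to 203 CPM against 913 to 2221, as were 8 of 9 mesothelial genes (165 to 201 against 1213 to 1525 CPM), 5 of 7 epithelial genes (99.7 to 123 against 429 to 511 CPM) and all 5 neutrophil genes tested of 6 (1.67 to 3.30 against 21.8 to 31.1 CPM). All 5 lymphatic endothelial genes were higher in GFP (309 to 493 against 22.2 to 77.6 CPM), and of 9 pan-endothelial genes 5 were higher and 1 lower (136 to 208 against 97.5 to 121 CPM). Of 6 pericyte genes 3 were higher and 1 lower, of 4 platelet genes tested 1 was higher and 2 lower, the 1 gene tested of the T and NK cell list and the 1 of the B and plasma cell list were lower, and none of 4 acinar genes passed. Among the epithelial genes, Krt8, Krt18 and Krt7 had the highest levels in Tomato (171, 133 and 82.1 CPM). Epcam and Cdh1 stood at 12.3 and 11.9 CPM there, and Muc1 and Sox9 did not pass. Whether these keratins came from epithelial or mesothelial cells was not tested. No listed marker was at 0 in all 6 libraries. The part of these cells in the differences given next was not tested, and in such bulk samples fewer cells of a type and less RNA per cell cannot be told apart.

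**Figure D1:**
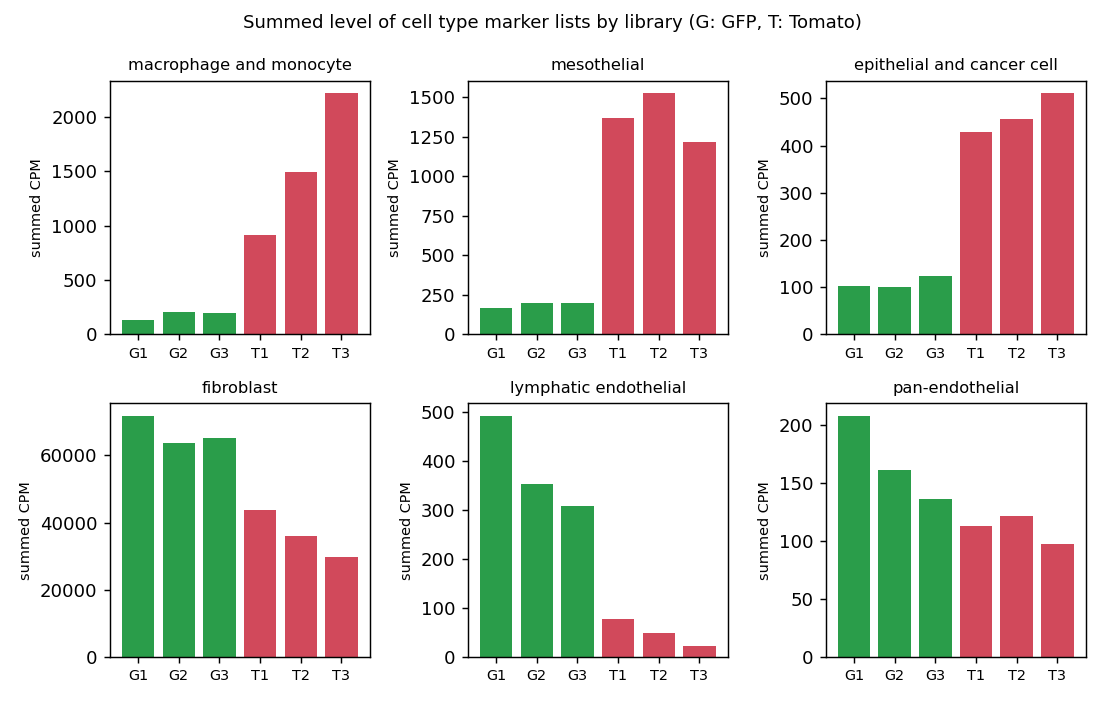
Summed level of 6 cell type marker lists in CPM (bars, 1 per library; G1 to G3 are GFP replicates and T1 to T3 Tomato replicates). The macrophage sum ran from 913 to 2221 CPM in Tomato and from 129 to 203 in GFP, and the fibroblast sum from 29615 to 43774 in Tomato and from 63641 to 71905 in GFP. Col1a1 and Col1a2 make up most of the fibroblast sum.

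Of the 9 genes, Serpine2 and Serpinf1 were higher in GFP and Serpinb2 was lower, and 6 did not pass the test (edgeR quasi-likelihood test, adjusted p under 0.05 over all genes tested). These 3 calls stand beside a background of 28.9% of all genes tested that were called, 13.1% higher and 15.7% lower. Their median log2 fold change, GFP over Tomato, was 0.30, against 0.00 over all genes tested, and their median absolute change was 0.48 against 0.31. For 6 of the 9 the fractions shared no range, with GFP above for 4 and below for 2. This held for 48.6% of all genes tested, 23.4% above and 25.2% below. Pairing by replicate number was read from these same data, and the labels do not state it. With the replicate number as a block, 5 of the 9 were higher in GFP and 2 lower, beside a background of 41% called, 20.1% higher and 20.9% lower. The added genes were Plau, Serping1 and F3 as higher and Plaur as lower. The sign of the difference was the same in all 3 pairs of equal number for all 9 genes, higher for 7 and lower for 2, which held for 69.3% of all genes tested (34.4% higher and 34.8% lower).

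**Figure D2:**
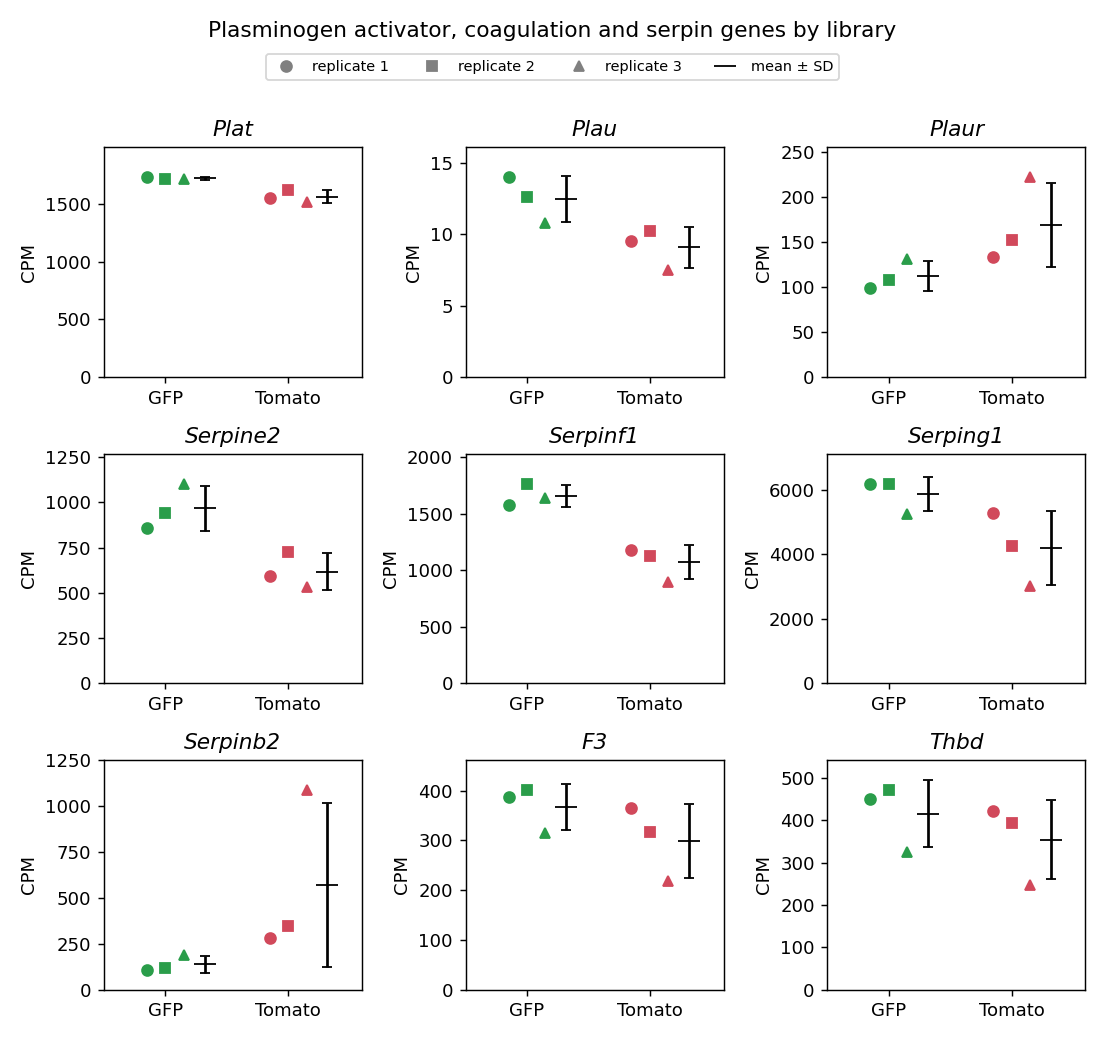
Level of each gene in CPM by library (symbols: replicates 1 to 3, green GFP and red Tomato), with mean ± SD over 3 libraries beside them and axes from 0. Serpinb2 reached 1087 CPM in Tomato replicate 3 and stayed at or under 345 in the other libraries, while Plat lay between 1516 and 1734 in all 6.

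Per exon length, Serping1 was the most abundant, at 2528 CPM per kilobase in GFP and 1806 in Tomato, which ranked 10 of 15608 genes tested by the mean over all libraries. In GFP it was followed by Serpinf1 (704 CPM per kilobase), Plat (276), F3 (145), Serpine2 (117), Thbd (112), Serpinb2 (59.0), Plaur (43.0) and Plau (5.27). The libraries of F3, Serpine2 and Thbd overlapped from each to the next in that order, as did those of Serpinb2 and Plaur, and the other neighbours did not. Length is the union of all exons, 8287 bases for Serpine2 against 3393 for its longest transcript, and 2527 against 1872 for F3. The place of Serpine2 thus depends on the length used. In Tomato the order had Serping1, Serpinf1 (453) and Plat (251) at the top, then Serpinb2 (243), F3 (118), Thbd (95.3), Serpine2 (74.3), Plaur (64.5) and Plau (3.84). There each gene from Plat to Plaur overlapped the next, and Serping1, Serpinf1 and Plau stood apart. Serpinb2 was thus at place 7 in GFP and at place 4 in Tomato. Its Tomato mean was raised by replicate 3 (463 CPM per kilobase, against 119 and 147 in replicates 1 and 2). In Tomato replicate 1 it was below F3 (144). The 9 genes together took 1.03% to 1.10% of all reads in GFP and 0.855% to 1% in Tomato, and the 4 serpins 0.791% to 0.848% and 0.611% to 0.748%.

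**Figure D3:**
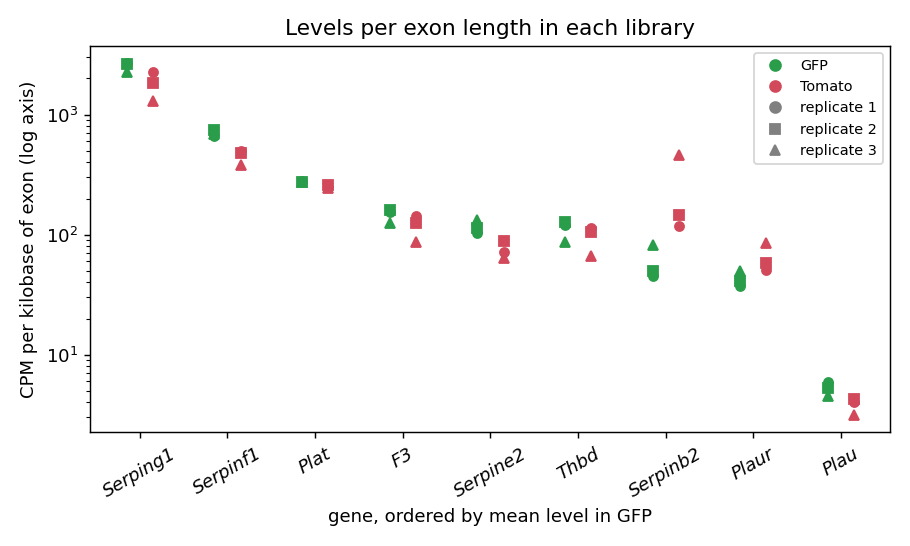
Level per exon length of the 9 genes in each library, in CPM per kilobase on a log axis (green GFP, red Tomato, symbols for replicates), ordered by the mean in GFP. Serping1 lies highest at 1301 to 2666 and Plau lowest at 3.17 to 5.93.

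Plat (ENSMUSG00000031538, chromosome 8, 22757727 to 22782844, plus strand, GRCm38) encodes tissue-type plasminogen activator, best known for dissolving clots in vessels. It had 1734, 1718 and 1719 CPM in GFP replicates 1, 2 and 3, and 1558, 1627 and 1516 in Tomato replicates 1, 2 and 3. All GFP libraries stood above all Tomato libraries, by little, and the GFP values had a coefficient of variation of 0.537%, lower than in all but 0.186% of genes tested. The log2 fold change was 0.14 ± 0.10 (SE; edgeR adjusted p = 0.343). With library size as the only scaling it was -0.03 (adjusted p = 0.857), and the median of all genes tested then moved from 0.00 to -0.16. The difference in Plat thus did not pass the test, whose error draws on the spread of other genes as well as that of Plat.

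Plau (ENSMUSG00000021822, chromosome 14, 20836660 to 20843385, plus strand) encodes urokinase-type plasminogen activator, the activator tied to matrix breakdown at the cell surface. It was the least abundant of the 9, with 14.0, 12.6 and 10.8 CPM in the GFP libraries and 9.56, 10.2 and 7.49 in the Tomato libraries, from 276 to 521 reads per library. The fractions did not overlap, though GFP replicate 3 and Tomato replicate 2 were close. The log2 fold change of 0.46 ± 0.16 did not pass (adjusted p = 0.0575). It did pass once replicates of equal number were treated as pairs (0.46 ± 0.11, edgeR adjusted p = 0.0108). Without the block it did not pass when any single library was left out (0.33 to 0.55, edgeR adjusted p = 0.0601 to 0.185). With counts from 1 strand it was at 0.31 (adjusted p = 0.175). Within each library Plau stood far under Plat, with a mean log2 ratio per exon length of -5.72 ± 0.19 in GFP and -6.04 ± 0.19 in Tomato (SD, n = 3), a difference of 0.32 (exact permutation test, two-sided, p = 0.2, adjusted over 6 ratios 0.3; 3 against 3 libraries cannot go below 0.1). Within the pairs of equal number the difference was 0.40, 0.23 and 0.34, above 0 in each (exact sign-flip permutation test, p = 0.25, the smallest that 3 pairs allow).

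Plaur (ENSMUSG00000046223, chromosome 7, 24462484 to 24475968, plus strand) encodes the receptor that holds urokinase at the cell surface. Its levels were 98.7, 108 and 131 CPM in GFP and 133, 152 and 222 CPM in Tomato. Every Tomato library was above every GFP library, with GFP replicate 3 just under Tomato replicate 1 and with Tomato replicate 3 well above the rest. The log2 fold change was -0.59 ± 0.20 (adjusted p = 0.0557). It passed as lower in GFP with the block (-0.56 ± 0.09, edgeR adjusted p = 0.0017), and without Tomato replicate 1 (-0.74, adjusted p = 0.0152), while without Tomato replicate 3 it was -0.35 (adjusted p = 0.0857). The receptor gene thus had the opposite sign to the gene of its ligand: the log2 ratio of Plaur to Plau per exon length was 2.67, 2.95 and 3.46 in GFP and 3.65, 3.75 and 4.74 in Tomato. The fractions did not overlap in this ratio, whose difference of -1.02 gave p = 0.1, the smallest the exact permutation test allows (adjusted 0.2). The macrophage marker sum was 913, 1496 and 2221 CPM in Tomato replicates 1, 2 and 3, and 129, 203 and 197 in GFP replicates 1, 2 and 3. The epithelial, pericyte, platelet, and T and NK cell sums also rose at each step from Tomato replicate 1 to 3. Those of the other lists did not. Macrophages are known to express Plaur, and the part of any of these cells in the difference in Plaur was not tested.

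Serpine2 (ENSMUSG00000026249, chromosome 1, 79794197 to 79861180, minus strand) encodes protease nexin-1, a secreted inhibitor of thrombin, urokinase and tissue-type activator that is bound to matrix and cell surfaces. It had 861, 939 and 1104 CPM in GFP and 591, 728 and 530 CPM in Tomato. GFP replicate 3 was the highest and Tomato replicate 3 the lowest, and the fractions did not overlap. Serpine2 was 1.57-fold higher in GFP (log2 fold change 0.65 ± 0.15, adjusted p = 0.0147). Without GFP replicate 3 the call was lost (0.55, adjusted p = 0.0516). Against its 2 target activators, the log2 ratio of Plat to Serpine2 per exon length was 1.42, 1.28 and 1.05 in GFP and 1.81, 1.57 and 1.93 in Tomato, with no overlap (difference -0.52, exact permutation p = 0.1, adjusted 0.2). That of Plau to Serpine2 was -4.47 ± 0.37 in GFP and -4.27 ± 0.12 in Tomato (SD, n = 3, exact permutation p = 0.5). The levels of both ratios depend on the length taken for Serpine2, while their differences between fractions do not.

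Serpinf1 (ENSMUSG00000000753, chromosome 11, 75409769 to 75422701, minus strand) encodes pigment epithelium-derived factor, a secreted serpin that inhibits no protease and is known to restrain vessel growth. Its levels were 1576, 1767 and 1641 CPM in GFP and 1184, 1125 and 899 CPM in Tomato, the lowest again in Tomato replicate 3. The fractions were well apart. Serpinf1 was 1.55-fold higher in GFP (0.64 ± 0.13 on the log2 scale, adjusted p = 0.0104), and the adjusted p was 0.0074 to 0.0431 when any single library was left out. Of the 9 genes it was the only one whose call at 0.05 was the same in all fits at that threshold and in all fits that left out a library, apart from Plat and Thbd, which did not pass in any.

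Serping1 (ENSMUSG00000023224, chromosome 2, 84765387 to 84775444, minus strand) encodes the C1 inhibitor, which blocks the first proteases of complement and of the contact pathway. It had 6198, 6177 and 5256 CPM in GFP and 5300, 4273 and 3024 CPM in Tomato. GFP replicate 3 was just below Tomato replicate 1, so the fractions overlapped, and Tomato replicate 3 was far below the others. The log2 fold change was 0.48 ± 0.20 (adjusted p = 0.105). It passed as higher in GFP with the block (0.52 ± 0.14, edgeR adjusted p = 0.0173) and without Tomato replicate 1 (0.68, adjusted p = 0.0234), and was 0.29 without Tomato replicate 3 (adjusted p = 0.195).

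Serpinb2 (ENSMUSG00000062345, chromosome 1, 107511423 to 107535478, plus strand) encodes plasminogen activator inhibitor 2, a mostly intracellular inhibitor of urokinase that is strongly induced in activated macrophages and in keratinocytes. Its levels were 107, 117 and 191 CPM in GFP and 281, 345 and 1087 CPM in Tomato. All Tomato libraries were above all GFP libraries, and Tomato replicate 3 was by itself. The coefficient of variation in Tomato was 78.5%, higher than for 99.2% of genes tested. Serpinb2 was 4.12-fold lower in GFP (-2.04 ± 0.54, adjusted p = 0.0299). Without Tomato replicate 3 the log2 fold change was -1.19 (adjusted p = 0.0286), and the call was lost without GFP replicate 1 (-1.89, 0.0715) and without GFP replicate 2 (-1.94, 0.082). Within the pairs of equal number the log2 difference was -1.39, -1.55 and -2.51. The log2 ratio of Plau, whose product it inhibits, to Serpinb2 per exon length was -2.94, -3.23 and -4.16 in GFP and -4.88, -5.09 and -7.19 in Tomato, with no overlap (difference 2.28, exact permutation p = 0.1, adjusted 0.2). Macrophage marker sums (913, 1496 and 2221 CPM in Tomato replicates 1, 2 and 3) and mesothelial marker sums (1370, 1525 and 1213 CPM) were both above those in GFP. In GFP replicates 1, 2 and 3 they were 129, 203 and 197 CPM for macrophages and 165, 201 and 199 CPM for mesothelium. The part of these cells was not tested. Exons of Serpinb2 share 291 bases with the neighbouring gene Serpinb10 on the same strand, which had 1 to 17 reads per library against 3929 to 40045 for Serpinb2.

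The order of the 6 libraries was the same for Serpinb2 and Plaur: Tomato replicate 3 was highest, then Tomato replicates 2 and 1, then GFP replicates 3, 2 and 1. Serping1 had nearly the reverse order, in which GFP replicate 3 and Tomato replicate 1 had changed places. Tomato replicate 3 was the highest or the lowest library for every member gene. Over all genes tested it also lay far from Tomato replicates 1 and 2 (chi-square divided by its degrees of freedom 120 and 51.7). Tomato replicates 1 and 2 were closer to each other (28.2). The share of all genes tested with the order of Serpinb2 and Plaur was not counted. The promoter windows of Serpinb2, Plaur and F3 all hold the AP-1-like motif, and F3 had another order of libraries. It lies 94 to 88 bases before the start in Serpinb2 and 69 to 63 in Plaur. Promoter sequence was at hand for 5 of the 9 genes. A link between this motif and the order of libraries was not tested.

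F3 (ENSMUSG00000028128, chromosome 3, 121723537 to 121735048, plus strand) encodes tissue factor, the cell surface starter of coagulation. It had 387, 401 and 314 CPM in GFP and 364, 316 and 218 CPM in Tomato. GFP replicate 3 lay below 2 of the Tomato libraries, so the fractions overlapped, and Tomato replicate 3 was lowest. The log2 fold change was 0.30 ± 0.19 (adjusted p = 0.256). With the block it passed as higher in GFP (0.32 ± 0.10, edgeR adjusted p = 0.0349), and without Tomato replicate 3 it was 0.10 (adjusted p = 0.592).

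Thbd (ENSMUSG00000074743, chromosome 2, 148404466 to 148408188, minus strand) encodes thrombomodulin, which is found on endothelium and on mesothelium. Its levels were 451, 472 and 325 CPM in GFP and 423, 393 and 248 CPM in Tomato. The fractions overlapped, with replicate 3 the lowest in each. The log2 fold change was 0.23 ± 0.22 (adjusted p = 0.45), or 0.25 ± 0.09 with the block (edgeR adjusted p = 0.0599), and it was 0.02 without Tomato replicate 3. Thbd and F3 had the same order of libraries, and the log2 ratio of F3 to Thbd per exon length was 0.39 ± 0.10 in GFP and 0.32 ± 0.07 in Tomato (SD, n = 3; exact permutation p = 0.6). The lymphatic endothelial marker sum was higher and the mesothelial sum lower in GFP, and the part of either in the level of Thbd was not tested.

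**Figure D4:**
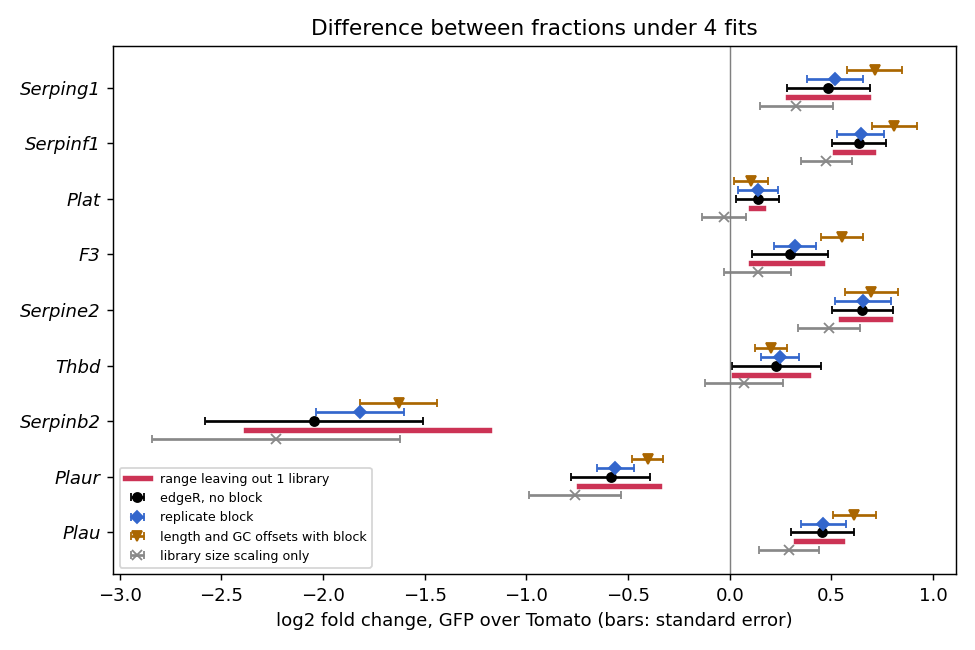
Log2 fold change, GFP over Tomato, of each gene under 4 fits (symbols with standard error) and the range when 1 library is left out (red bars). Serpinb2 ranges from -2.38 to -1.19 over the left-out libraries, and Plat lies near 0 in each fit, at -0.03 with library size scaling only.

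For each of the 3 genes that passed, the genes most alike in pattern among 8911 protein-coding genes with a mean of at least 10 CPM were found by the Pearson correlation of log2 CPM over the 6 libraries. The values are descriptions over libraries that fall into 2 fractions. Msrb3 (0.9975) and Hdac10 (0.9974) were most like Serpine2, Gpm6b (0.9996) and Plppr2 (0.9985) most like Serpinf1, and Tsc22d1 (0.9995) and Eno1 (0.9977) most like Serpinb2. With so few libraries such values are common, as 99, 444 and 537 genes reached at least 0.95 for Serpine2, Serpinf1 and Serpinb2.

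Other genes of these systems were read from a list of 62, of which 46 passed the filter. In GFP 8 were higher and 12 lower, 43.5% of those tested against 28.9% of all genes. With the replicate number as a block 12 were higher and 14 lower, beside 20.1% and 20.9% of all genes tested. Plg, which encodes plasminogen itself and is made mainly by liver, had 0 reads in the GFP libraries together and 1 in the Tomato libraries, and a count of 0 allows up to 0.0283 CPM over the GFP libraries (3 reads, counting error only). Fibrinogen chains Fga, Fgb and Fgg and prothrombin F2 had at most 2 reads in any library.

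Of 9 genes tested for plasminogen receptors and binding proteins, 3 were higher and 2 lower. Mrc2, a collagen uptake receptor that associates with the urokinase receptor, had 328 ± 39.5 CPM in GFP against 166 ± 24.3 in Tomato (0.98 ± 0.14, adjusted p = 0.00165). Lrp1, which clears activator and serpin complexes from the cell surface, was at 1068 ± 82.7 and 533 ± 151 CPM (1.003 ± 0.204 on the log2 scale, adjusted p = 0.00939). With offsets for transcript length and GC content Mrc2 was at 0.67 (adjusted p = 0.00291) and Lrp1 at 0.52 (0.0595), and with offsets and block together Lrp1 passed (0.54, 0.00772). Itgav, an integrin chain, was the other higher gene (0.42, adjusted p = 0.0361), and S100a10 (-0.40, 0.0361) and Eno1 (-0.79, 0.0371), both known to bind plasminogen at the cell surface, were the lower. The Itgav call was lost without GFP replicates 1 or 3 or Tomato replicates 2 or 3, and that of S100a10 without any single library other than Tomato replicate 1. That of Eno1 was lost without any GFP library or Tomato replicate 2, and its change was -0.48 without Tomato replicate 3. The adjusted p in these fits reached 0.125 for Itgav, 0.111 for S100a10 and 0.109 for Eno1. With offsets for length and GC content none of the 3 passed, with S100a10 at -0.10 (adjusted p = 0.555), Itgav at 0.20 (0.176) and Eno1 at -0.69 (0.0537). With offsets and block together Eno1 passed (-0.65, 0.00438), and S100a10 (-0.11, 0.368) and Itgav (0.20, 0.152) did not. A close copy of Eno1 exists, so its counts are uncertain. Vtn, which encodes the matrix protein vitronectin, stood at 75.4 ± 18.6 and 56.1 ± 15.1 CPM (adjusted p = 0.211).

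Among inhibitors, the broad protease trap gene A2m was at 329 ± 91.4 and 98.3 ± 27.0 CPM (1.74 ± 0.26, adjusted p = 0.00378). Serpini1, the neuroserpin gene, was lower (1.88 ± 0.08 against 4.00 ± 0.76 CPM, adjusted p = 0.00616). Of the 12 other serpins tested, 4 were lower and 8 did not pass. Serpinb1a, an inhibitor of neutrophil proteases, was at 76.1 ± 4.30 against 144 ± 12.5 CPM (-0.92 ± 0.10, adjusted p = 0.000443), and Serpinb6b at 37.6 ± 4.93 against 65.5 ± 1.30 (-0.80, adjusted p = 0.00146). Serpinb8 (-1.40, adjusted p = 0.00325) and Serpinb5 (-1.77, 0.00558), the latter at 0.498 and 1.71 CPM, were the others. Close copies exist for Serpinb1a, Serpinb6b and the Serpina3 genes, so their counts are uncertain. Tfpi and Tfpi2 were grouped with the anticoagulants and did not pass by edgeR without the block (0.27 and 0.37, adjusted p = 0.164 and 0.0943). The 2 genes grouped here as Kunitz inhibitors, Spint1 and Spint2, are known from epithelia and were lower. Spint2 was at 4.46 ± 1.26 against 41.2 ± 6.08 CPM (-3.21 ± 0.22, adjusted p = 9.59e-05) and Spint1 at 1.13 ± 0.08 against 15.6 ± 8.41 (-3.78 ± 0.43, adjusted p = 0.00129). Mesothelial markers (8 of 9 lower), epithelial markers (5 of 7) and macrophage markers (11 of 11) moved with these genes, and their part was not tested.

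Among coagulation genes, the thrombin receptor gene F2r was at 246 ± 25.6 CPM in GFP and 118 ± 10.6 in Tomato, 2.09-fold higher (1.06 ± 0.11, adjusted p = 0.000443), and F2rl1, a receptor cut by trypsin-like proteases, at 7.44 ± 2.41 and 2.79 ± 0.58 CPM (1.41 ± 0.26, adjusted p = 0.00609). F7, the protease partner of tissue factor, was lower (0.961 ± 0.40 against 5.34 ± 1.40 CPM, -2.47 ± 0.34, adjusted p = 0.00174), as was F10, the factor that this pair activates (-2.82 ± 0.43, adjusted p = 0.0038). F5 was higher (1.62 ± 0.38, adjusted p = 0.0156), which did not pass when GFP replicate 1 (0.0593) or Tomato replicate 2 (0.0534) was left out. Of the 6 anticoagulant genes tested 0 passed by edgeR, while 4 had an unadjusted p under 0.05, as did 6632 of all 15608. DESeq2 called 1 higher and 1 lower, beside 2316 and 2611 genes over all, and limma-voom called 0. Tfpi, the inhibitor of tissue factor, stood at 126 ± 7.99 and 104 ± 19.6 CPM (adjusted p = 0.164), and Procr, the receptor of protein C, at 173 ± 48.0 and 123 ± 13.7 CPM (adjusted p = 0.102). With the replicate block 4 of the 6 were higher in GFP and 1 lower (20.1% and 20.9% of all genes tested), among them Tfpi at 0.29 (edgeR adjusted p = 0.0493) and Procr at 0.46 (0.0339), and Procr passed without GFP replicate 3 (0.70, 0.00899).

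**Figure D5:**
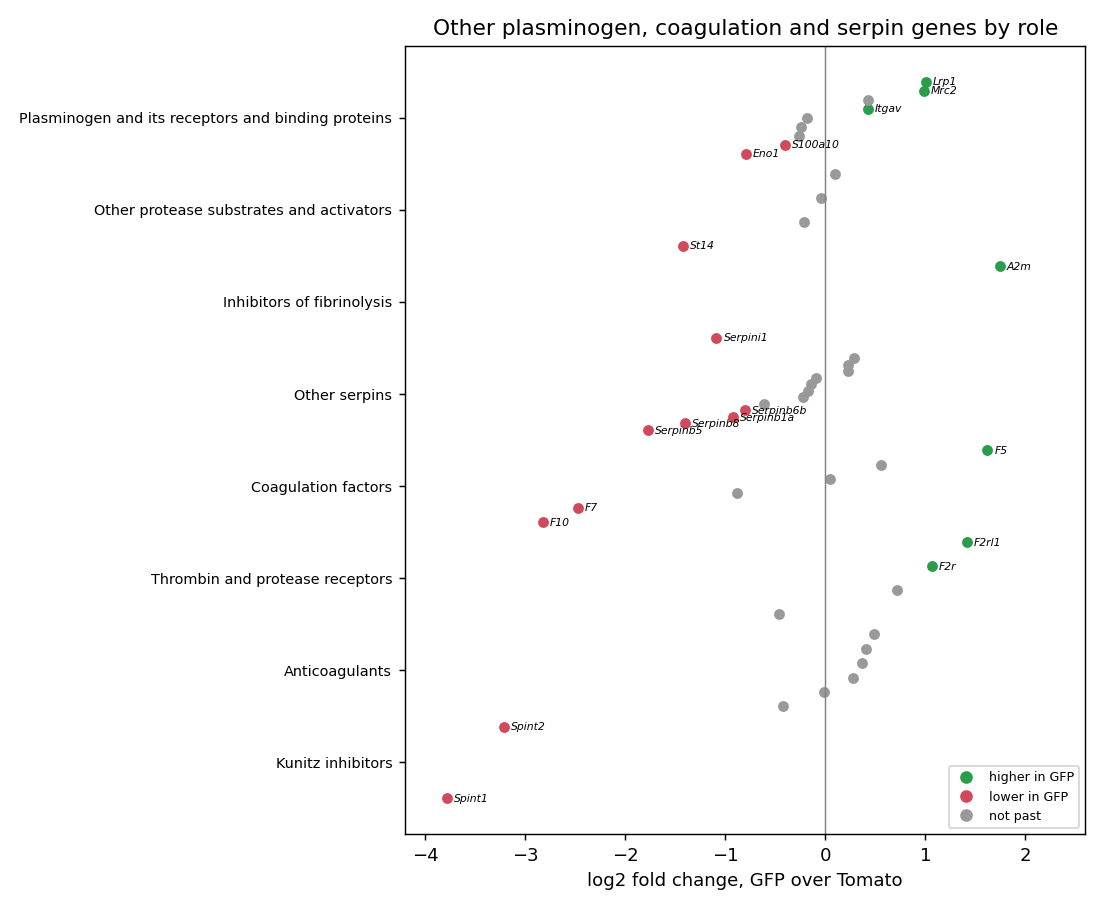
Log2 fold change, GFP over Tomato, of 45 of the 46 other genes tested, by role (points; green higher and red lower in GFP by edgeR, grey not past the threshold). Spint1 and Spint2 lie lowest, at -3.78 and -3.21, and A2m highest at 1.74.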

How the data were processed

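For each library the authors deposited a table of raw counts by gene, unstranded and by strand, per the file headers. Libraries were made from 150 ng of total RNA, per the labels' protocols. Trim Galore 0.4.3, STAR 2.5.2b and build GRCm38 are named, without roles, per the submitters' processing notes; their annotation release is not given in the sources used here. Unstranded counts were taken, because counts by strand were nearly equal (ratio 1.0022 to 1.0063), so antisense reads cannot be told apart. Identifiers were matched to GENCODE M21 (GRCm38), 49412 of 49671.

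GFP and Tomato libraries (3 each) were compared by the edgeR 4.0.16 quasi-likelihood test in R 4.3.3 (filterByExpr, TMM, robust, two-sided, Benjamini-Hochberg over 15608 genes), with standard errors from the fold change and F. Levels per length are CPM per kilobase of exon union, and ratios add 0.5 reads to each gene. No library repeated another: within a fraction, chi-square divided by its degrees of freedom was 27.8 to 120. Libraries of equal number deviated together over genes (correlations 0.463, 0.182 and 0.405, all above 0.1). Unequal numbers gave -0.442 to -0.014. Deviations were taken from the mean of each fraction, which pushes these below 0 when the others are above 0. With 3 libraries per fraction, such a match can also arise by chance. The numbers were taken as pairs, from these data alone, as an alternative, and blocked values stand beside results they change. The floor given for Plg covers counting error only, while ± values are SDs between libraries or standard errors of the fit.

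Members and lists were chosen with earlier results of these data known. The naming rule took all 9 members, Pdpn, Fabp4, the 5 higher and 5 lower listed genes of smallest adjusted p with at least 1 CPM, Plg, Vtn, Lrp1, Tfpi and Procr, and the 2 genes most like each called member; 1 gene it names is not reported here. S100a10, Itgav, F5, F10, Serpini1, Serpinb5, Serpinb8, Fga, Fgb, Fgg and F2 were named after their values were seen. Alternatives were other scalings and filters, DESeq2 1.42.0, limma-voom (limma 3.58.1), no robust estimation, the block, counts from 1 strand, a test restricted to protein-coding genes, a 0.01 threshold, offsets from splines of length and GC content (4 degrees of freedom), and leaving out each library.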

Additional observations from a re-analysis of the deposited data

How the results depend on the processing

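Of 20 alternatives to the test, all kept the direction of 8 of the 9 genes, and Plat was the exception. With library size scaling only, Plat was at -0.029 and Plaur passed at -0.76, making 2 genes lower, while over all genes 1128 were higher and 3851 lower against 2049 and 2456. With the replicate block Plau (0.46), Plaur (-0.56), Serping1 (0.52) and F3 (0.32) passed, giving 5 higher and 2 lower, beside 3137 and 3256 over all genes. The pairing changed no other call among the 9. With length and GC offsets Plau passed (0.61), and over all genes 1442 were higher and 2017 lower. With the block as well Plau (0.61), Plaur (-0.40), Serping1 (0.71) and F3 (0.55) passed, again 5 and 2, beside 2452 and 2843 over all genes. By DESeq2 Plau (0.45), Plaur (-0.59) and Serping1 (0.48) passed, giving 4 higher and 2 lower, beside 2316 and 2611 over all genes. With protein-coding genes alone Plaur passed (-0.58), giving 2 lower, beside 2331 of the protein-coding genes. With no filter Serpinb2 did not pass (-2.06), leaving 0 lower, beside 2642 over all genes. At a threshold of 0.01 Serpine2 (0.65), Serpinf1 (0.64) and Serpinb2 (-2.04) did not pass, leaving 0 higher and 0 lower, and 578 and 1083 over all genes.

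Leaving out each library in turn gave log2 fold changes of 0.11 to 0.16 for Plat, 0.33 to 0.55 for Plau, -0.74 to -0.35 for Plaur, 0.55 to 0.79 for Serpine2, 0.52 to 0.71 for Serpinf1, 0.29 to 0.68 for Serping1, -2.38 to -1.19 for Serpinb2, 0.10 to 0.45 for F3 and 0.02 to 0.38 for Thbd. It left 1 to 3 of the 9 higher and 0 to 2 lower, and 833 to 2392 and 1380 to 2793 over all genes. The log2 ratio of Plau to Serpine2 differed by -0.197 in all libraries and by 0.003 without GFP replicate 3 (range -0.367 to 0.003). With equal numbers as pairs, chosen after seeing the data, the ratios of Plau to Plat, Plat to Serpine2, Plaur to Plau and Plau to Serpinb2 kept 1 sign in all 3 pairs (exact sign-flip p = 0.25, the smallest possible), and those of Plau to Serpine2 and F3 to Thbd did not (p = 0.5). The causes of these changes were not tested.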
